A study of Mus musculus with 14 samples.

Results

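Endothelial cells line the blood vessels of the mammary gland, and 10 genes that mark them, Pecam1, Cdh5, Kdr, Flt1, Tek, Tie1, Eng, Cldn5, Emcn and Plvap, were followed in RNA from mammary epithelial cells (MECs) of mice that overexpressed Usp22. The genes were taken by symbol, and all 10 were found among the 16124 genes measured. Usp22 is a deubiquitinase, the enzyme that removes ubiquitin as part of the SAGA transcription complex. There were 14 libraries, 1 for each mouse, from 7 wild-type (WT) and 7 Rosa26KI-Usp22 OE/OE females aged 3.5 months, matched as 7 littermate pairs numbered 1, 3, 4, 5, 6, 7 and 8. OE/OE mice carried on both alleles a Usp22 cDNA under the CAGGS promoter at the ROSA26 locus, and Zp3-cre, active in the female germ line, had removed the stop cassette, so that endothelial and epithelial cells alike carried the active transgene. The comparison asks whether blood vessel genes changed in OE/OE MEC preparations. Glands were digested and organoids were pelleted by short spins, with no sorting of cells, and the supernatant in which endothelial cells were collected is not analysed here. Values are normalized counts, which are fragments per gene divided by the authors' DESeq size factor of the library.

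Each of the 10 genes has a known place in the vessel wall. Vascular endothelial growth factor (VEGF) acts through the receptor tyrosine kinases KDR and FLT1, the angiopoietins through TEK (also called TIE2) with its partner TIE1, and BMP9 and TGFβ through the co-receptor endoglin. PECAM1, VE-cadherin (Cdh5) and claudin-5 hold neighbouring endothelial cells together, and PLVAP forms the diaphragms of fenestrae and caveolae. The mammary gland remodels its capillary bed along with its ducts and lobules, and VEGF from epithelial and fat cells feeds this remodelling.

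Usp22 itself separated the genotypes in every pair. Its normalized counts were 3500.0, 4119 and 5379.7 (lowest, median and highest) in the 7 WT mice and 74948, 107962 and 144288 in the 7 OE/OE mice, with a limma log2 fold change of 4.65 ± 0.11 (SE) and an adjusted p of 4.74e-08. Depth ran from 20125106 to 41835978 fragments per library, and the lowest count of any endothelial gene was 585 fragments (Tek), so that counting error was small beside the spread between mice. The labelled cell type was checked against 12 epithelial markers, whose summed normalized counts were 399615 to 656623 in WT and 437511 to 713199 in OE/OE mice. The 10 endothelial genes together summed to 51445 to 76865 in WT and 19948 to 104728 in OE/OE mice, so transcripts of endothelial cells were present in every preparation labelled epithelial. In bulk RNA, fewer endothelial cells and less RNA per endothelial cell cannot be told apart.

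One library stood apart. The OE/OE mouse of pair 4 had the lowest OE/OE value for 10 of 10 endothelial genes, while over all genes it was the lowest of the 7 OE/OE mice for 31.3%. In the same library the 10 proliferation genes summed to 14261 normalized counts against 287 in its WT littermate, and the adipocyte score, the mean log2 of 10 adipocyte genes, differed by -2.19 from that littermate. The 10 genes are therefore given with and without pair 4, as are the lists where a call or a direction turned. The proliferation and adipocyte scores were also fitted as covariates, as given further on. The part of these lists in the endothelial values was not tested otherwise.

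The sequences just upstream of the RefSeq start of 6 genes are shown because they include the VEGF and angiopoietin receptors, whose levels moved together, beside Emcn and Cldn5, which followed the other members least in single pairs. They are the 250 bases before the RefSeq start on GRCm38.p6, written 5′ to 3′ on the gene's strand, with each GGAA or its reverse complement TTCC, the core that ETS factors such as ERG bind, in capitals. The positions are chr5:75978456-75978705, minus strand for Kdr, chr5:147726012-147726261, minus strand for Flt1, chr4:94739039-94739288, plus strand for Tek, chr4:118489850-118490099, minus strand for Tie1, chr3:137340828-137341077, plus strand for Emcn and chr16:18776597-18776846, plus strand for Cldn5.
Kdr: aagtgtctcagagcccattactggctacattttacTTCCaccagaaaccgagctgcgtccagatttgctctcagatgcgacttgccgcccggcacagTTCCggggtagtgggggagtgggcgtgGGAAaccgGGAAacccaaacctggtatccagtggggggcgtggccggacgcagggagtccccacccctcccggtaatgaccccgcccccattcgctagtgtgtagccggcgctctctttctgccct
Flt1: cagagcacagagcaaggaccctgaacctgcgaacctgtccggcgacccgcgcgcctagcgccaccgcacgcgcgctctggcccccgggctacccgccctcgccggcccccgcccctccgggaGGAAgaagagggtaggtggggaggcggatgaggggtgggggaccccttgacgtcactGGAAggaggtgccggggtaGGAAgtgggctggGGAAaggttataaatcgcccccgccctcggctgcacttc
Tek: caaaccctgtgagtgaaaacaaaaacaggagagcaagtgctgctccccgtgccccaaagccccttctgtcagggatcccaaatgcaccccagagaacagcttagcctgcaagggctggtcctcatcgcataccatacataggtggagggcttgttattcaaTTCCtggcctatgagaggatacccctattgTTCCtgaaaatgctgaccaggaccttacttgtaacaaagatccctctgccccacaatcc
Tie1: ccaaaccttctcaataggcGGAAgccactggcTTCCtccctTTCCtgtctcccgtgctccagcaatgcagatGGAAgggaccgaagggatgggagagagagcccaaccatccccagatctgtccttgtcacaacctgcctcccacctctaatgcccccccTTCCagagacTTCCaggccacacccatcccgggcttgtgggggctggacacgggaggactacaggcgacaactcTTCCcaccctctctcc
Emcn: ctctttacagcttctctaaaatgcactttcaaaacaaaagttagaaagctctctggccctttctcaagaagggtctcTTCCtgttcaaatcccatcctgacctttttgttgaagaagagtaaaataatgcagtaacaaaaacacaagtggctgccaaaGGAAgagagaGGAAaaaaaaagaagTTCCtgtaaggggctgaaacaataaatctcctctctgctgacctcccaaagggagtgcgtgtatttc
Cldn5: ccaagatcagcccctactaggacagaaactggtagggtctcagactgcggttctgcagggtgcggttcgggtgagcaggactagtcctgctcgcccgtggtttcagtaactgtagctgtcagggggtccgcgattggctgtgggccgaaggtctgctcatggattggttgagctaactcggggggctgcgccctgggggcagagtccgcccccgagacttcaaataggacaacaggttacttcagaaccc

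RefSeq promoter sequences were found for 7 of the 10 genes (the 6 printed and Eng). For Tie1 the RefSeq start lies within the GENCODE gene (chr4:118471191-118490061), so most of its window is inside that gene. GGAA occurred on either strand in 6 of the 7, with 7 matches in Tie1, 4 each in Kdr, Flt1 and Emcn, 3 in Eng, 2 in Tek and none in Cldn5. Of all 32817 mouse promoters of the same length 93.4% held it, with a median of 3 matches, so holding the core was common to nearly all genes. The longer AGGAAG, which contains GGAA, occurred in 4 of the 7 (Flt1, Tie1, Eng and Emcn) and in 29.5% of all promoters. ACAAT, a core bound by SOX factors, occurred in Tek and Emcn and in 27.7% of all promoters, and GATAA, the core of GATA factors, in none of the 7 and in 22.6% of all. The TATA box core TATAA occurred in Flt1, where the nearest match began 31 bases upstream of the start, and in Eng, and in 22.8% of all promoters. Over the 14942 promoters of the genes measured here, 93.1% held GGAA, 28.5% AGGAAG, 18.8% ACAAT, 15.2% GATAA and 13.2% TATAA. These matches describe letters in the window and no binding was measured. Cldn5, whose window lacked GGAA, departed most from the other 9 genes between littermates, as given with the pair ratios, and no relation between sequence and level was tested.

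None of the 10 endothelial genes differed between WT and OE/OE mice past the threshold (0 of 10). In limma with the littermate pair as a block, their log2 fold changes ran from -0.27 (Cldn5) to -0.01 (Emcn), with a median of -0.09, beside a median of -0.001 over all 16124 genes. The threshold was an unadjusted p of at most 0.05. Over all genes 614 (3.81%) passed it, with 1.95% higher and 1.85% lower in OE/OE mice, so that a count of 0 among 10 genes lies near that background. edgeR and DESeq2 also called 0 of the 10. All 10 endothelial genes had an adjusted p of 0.9997. For none of the 10 did the WT and OE/OE values separate, as they did for 0.0434% of all genes, and none moved the same way in all 7 pairs, as 1.51% of all genes did. The 95% intervals of the 10 fold changes reached down to -0.91 (Cldn5) and up to 0.55 (Flt1) on the log2 scale, so that changes of this size could not be told from no change with these mice.

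**Figure D1:**
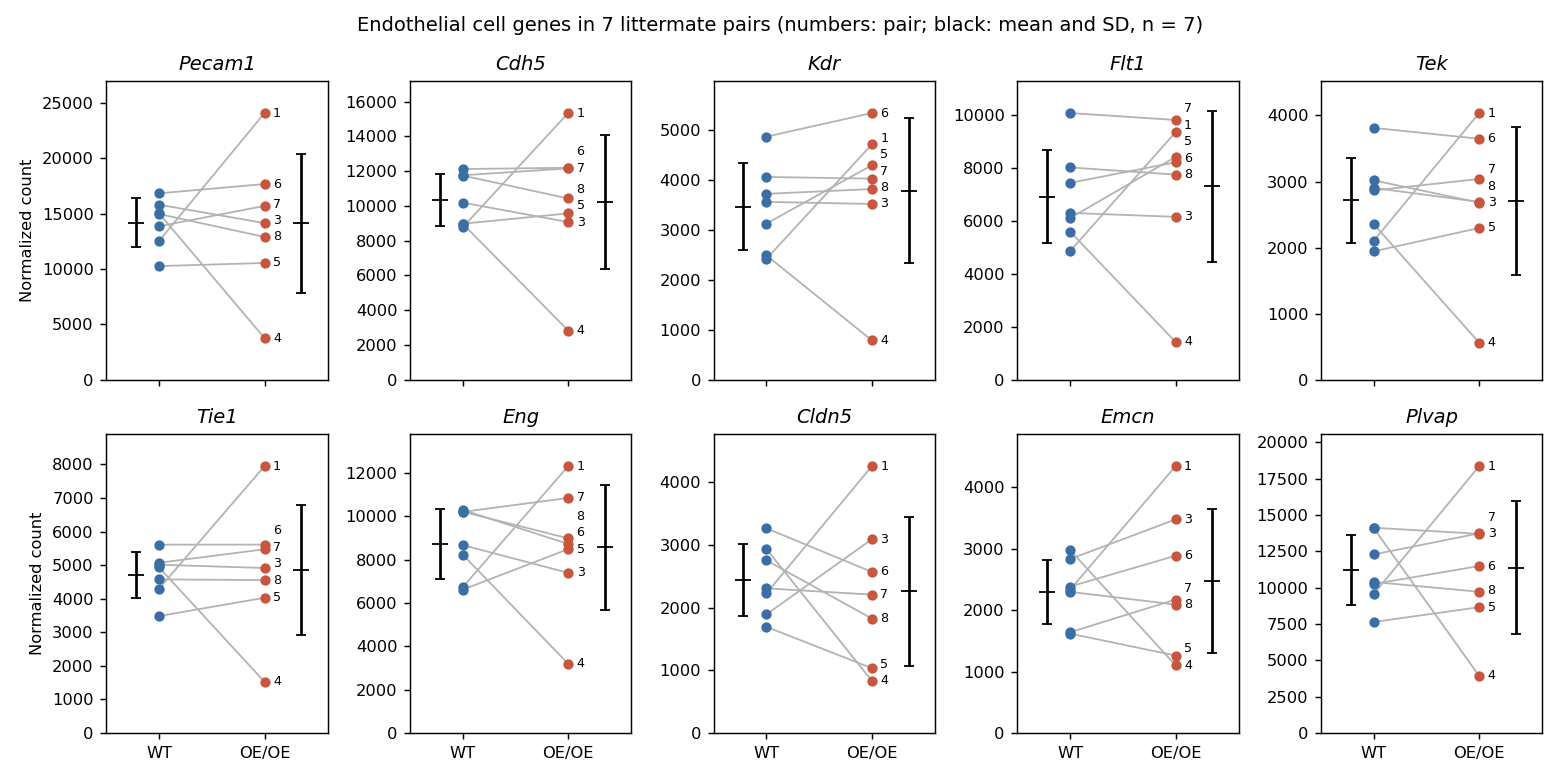
Normalized counts (linear axes from 0) of each of the 10 endothelial genes in the 7 WT (blue) and 7 OE/OE (red) mice, with a grey line for each littermate pair, the pair number beside the OE/OE point, and the mean and SD of each group in black. The OE/OE mouse of pair 4 is the lowest OE/OE point in all 10 panels, and the 2 groups overlap in each panel.

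Neither VEGF receptor passed the threshold, and both overlapped widely between the genotypes. Kdr (ENSMUSG00000062960.10, chr5:75932827-75978458), the main signalling receptor for VEGF-A, had normalized counts of 2418, 3558 and 4863 (lowest, median and highest) in the 7 WT mice and 788, 4023 and 5336 in the 7 OE/OE mice. The lowest value belonged to the OE/OE mouse of pair 4, and the other 6 OE/OE mice lay between 3517 and 5336, within or just above the WT range. The means were 3461 ± 870.0 and 3783 ± 1450.4 (SD, n = 7), and the limma log2 fold change was -0.01 (SE 0.25, 95% interval -0.57 to 0.54, limma p = 0.957, exact sign-flip p = 0.953). Without pair 4 the Kdr difference became 0.26 (exact sign-flip p = 0.125), the largest of the 10 genes under that setting, where 8.47% of all genes passed the threshold. Flt1 (ENSMUSG00000029648.13, chr5:147561604-147726011), the high-affinity receptor that also acts as a decoy for VEGF-A, had 4849, 6292 and 10059 in WT and 1427, 8201 and 9797 in OE/OE mice. Its extremes were the OE/OE mouse of pair 4 and the WT mouse of pair 7. The Flt1 means were 6903 ± 1752 and 7292 ± 2841 (SD, n = 7), with a log2 fold change of -0.08 (SE 0.28, 95% interval -0.70 to 0.55, limma p = 0.789, exact sign-flip p = 0.891), and 0.24 without pair 4 (exact sign-flip p = 0.25). The balance of the 2 receptors also overlapped: the ratio of Flt1 to Kdr per kilobase of exon was 1.02 to 1.66 in WT and 1.03 to 1.63 in OE/OE mice, and was higher in OE/OE mice in 2 of 7 pairs.

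The angiopoietin receptors did not pass the threshold either. Tek (ENSMUSG00000006386.15, chr4:94739289-94874976), which binds ANGPT1 and ANGPT2 and keeps vessels quiescent, had 1944, 2865 and 3812 normalized counts in WT and 561, 2693 and 4037 in OE/OE mice. It showed the widest OE/OE range of the 10 genes, 7.20-fold between the mice of pairs 1 and 4, and 1.76-fold without pair 4. The Tek means were 2714 ± 639 and 2708 ± 1121 (SD, n = 7), and the log2 fold change was -0.16 (SE 0.28, 95% interval -0.80 to 0.47, limma p = 0.576, exact sign-flip p = 0.75). Tie1 (ENSMUSG00000033191.14, chr4:118471191-118490061), an orphan receptor that modulates TEK, had 3481, 4931 and 5609 in WT and 1522, 4913 and 7946 in OE/OE mice. The mice of pair 6 had the same Tie1 value to the nearest whole number, 5609, in both genotypes. Means of Tie1 were 4710.3 ± 679.8 and 4863 ± 1932 (SD, n = 7), with a log2 fold change of -0.07 (SE 0.24, 95% interval -0.62 to 0.47, limma p = 0.763, exact sign-flip p = 0.906). Without pair 4 both differences became positive, 0.15 for Tek (exact sign-flip p = 0.531) and 0.20 for Tie1 (exact sign-flip p = 0.219). The ratio of Tek to Tie1 per kilobase was 0.499 to 0.709 in WT and 0.385 to 0.679 in OE/OE mice, and the 2 ranges overlapped over most of their length.

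Among the genes of endothelial junctions, Pecam1 and Cdh5 moved with the receptors over the 14 libraries and Cldn5 less so. Without the OE/OE mouse of pair 4, Pearson's r of Pecam1 was 0.96 with Tie1 and 0.88 with Tek. It was only 0.46 with Kdr and 0.35 with Flt1, below the 0.81 of Pecam1 with Cldn5. Cdh5 kept r of 0.76 (Kdr) to 0.88 (Tek) with the receptors. Pecam1 (ENSMUSG00000020717.19, chr11:106654217-106750628), the adhesion molecule CD31 that also occurs on platelets and leukocytes, had 10259, 14962 and 16829.9 normalized counts in WT and 3764, 14139 and 24074 in OE/OE mice. Both extremes were OE/OE mice, that of pair 1 at the top and that of pair 4 at the bottom, while the WT mice spanned 1.64-fold. Means of Pecam1 were nearly equal at 14179 ± 2206 and 14109.9 ± 6267 (SD, n = 7), with a log2 fold change of -0.16 (SE 0.28, 95% interval -0.78 to 0.46, limma p = 0.569, exact sign-flip p = 0.734). Cdh5 (ENSMUSG00000031871.9, chr8:104101625-104144511), which encodes VE-cadherin of the adherens junction, had 8771, 10193 and 12126 in WT and 2835, 10433 and 15347 in OE/OE mice. It was the most even of the 10 genes across WT mice, which spanned 1.38-fold. The Cdh5 log2 fold change was -0.15 (SE 0.23, 95% interval -0.67 to 0.37, limma p = 0.534, exact sign-flip p = 0.625), from means of 10366 ± 1495 and 10232 ± 3879 (SD, n = 7). Cldn5 (ENSMUSG00000041378.2, chr16:18776847-18778262), the tight junction claudin of endothelium, had 1694, 2308 and 3267 in WT and 832, 2208 and 4258 in OE/OE mice. Low values of Cldn5 were found in 2 OE/OE mice, those of pairs 4 (832) and 5 (1033), and its OE/OE range stayed at 4.12-fold without pair 4. Cldn5 was lower in OE/OE mice in 5 of 7 pairs, with means of 2439.8 ± 570.0 and 2259.9 ± 1191 (SD, n = 7) and a log2 fold change of -0.27 (SE 0.28, 95% interval -0.91 to 0.37, limma p = 0.365, exact sign-flip p = 0.453), which became -0.01 without pair 4 (exact sign-flip p = 0.906). For Pecam1 and Cdh5 the values without pair 4 were 0.14 (exact sign-flip p = 0.562) and 0.10 (exact sign-flip p = 0.781).

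Endoglin, endomucin and PLVAP, which sit on the endothelial surface, also overlapped between genotypes. Eng (ENSMUSG00000026814.16, chr2:32646595-32682669), the co-receptor for BMP9 and TGFβ, had 6612, 8669.9 and 10295 normalized counts in WT and 3191, 8720.1 and 12313 in OE/OE mice. In pair 4 its ratio to the WT littermate, 0.388, was the highest of the 10 genes. The Eng log2 fold change was -0.10 (SE 0.21, 95% interval -0.58 to 0.38, limma p = 0.651, exact sign-flip p = 0.688), from means of 8706 ± 1611 and 8560.2 ± 2878 (SD, n = 7). Exons of Eng overlap those of Fpgs on the other strand by up to 111 bases. Whether the libraries kept the strand is not stated, so how reads there were assigned is not known. Emcn (ENSMUSG00000054690.17, chr3:137341067-137432185), a sialomucin of capillary and venous endothelium, had 1618, 2332 and 2980.4 in WT and 1103, 2172 and 4346 in OE/OE mice. Emcn was low in 2 OE/OE mice, those of pairs 4 (1103) and 5 (1261), as Cldn5 was. The Emcn means were 2298 ± 525 and 2477 ± 1174 (SD, n = 7), with a log2 fold change of -0.01 (SE 0.23, 95% interval -0.53 to 0.51, limma p = 0.974, exact sign-flip p = 1). Plvap (ENSMUSG00000034845.6, chr8:71497765-71511752), a marker of fenestrated vessels, had 7638, 10389.8 and 14126 in WT and 3926, 11491 and 18364 in OE/OE mice. The Plvap range of the OE/OE mice enclosed that of the WT mice on both sides. Means of Plvap were 11194 ± 2417 and 11372 ± 4574 (SD, n = 7), with a log2 fold change of -0.08 (SE 0.26, 95% interval -0.67 to 0.51, limma p = 0.777, exact sign-flip p = 0.953). Without pair 4 the differences were 0.11 for Eng, 0.23 for Emcn and 0.22 for Plvap (exact sign-flip p = 0.656, 0.281 and 0.125).

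The exact two-sided sign-flip test of the 7 pair ratios, whose smallest possible p is 0.0156, gave the same calls, with p from 0.453 (Cldn5) to 1 (Emcn). Without pair 4 the direction turned from below to above 0 for 9 of the 10 genes and stayed below 0 for Cldn5, and none of the 10 passed the threshold. Leaving out pair 1 in place of pair 4 moved the values the other way, to -0.47 to -0.16 with a median of -0.25, again with none called.

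Littermates differed little in 5 of the 7 pairs and strongly in the others. In pair 1 all 10 endothelial genes were higher in the OE/OE mouse, at 1.75 (Cdh5) to 1.95 times (Kdr) the WT littermate with a median ratio of 1.92. Over all genes 8.77% had a ratio of 1.75 or more in that pair. The WT library of pair 1 was the shallowest of the 14. Other lists differed in that pair too, by 0.52 for fibroblast and 0.53 for adipocyte genes in mean log2, by -2.19 for lymphocyte genes and by -2.39 for milk protein genes. The lymphocyte genes of its WT mouse summed to 1774 normalized counts, against 209 to 444 in the other 6 WT mice. Beyond the fits with the fibroblast and adipocyte scores given further on, the part of these lists in the endothelial values was not tested. In pair 4 all 10 were lower, at 0.238 (Tek) to 0.388 (Eng) with a median of 0.296, and the log2 ratio was below -1 for each, as it was for 13.2% of all genes. These 2 pairs thus moved the whole group in opposite directions.

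The other pairs had median ratios near 1. The median was 0.973 in pair 3, 1.14 in pair 5, 1.03 in pair 6, 1.06 in pair 7 and 0.919 in pair 8. Cldn5 had the lowest ratio of the 10 genes in pairs 5 (0.610), 6 (0.787), 7 (0.957) and 8 (0.663), and the highest in pair 3 (1.63). Emcn had the highest ratio in pairs 6 (1.21) and 7 (1.32). Against the mean of the other 9 genes, Cldn5 changed between littermates by -0.90 to 0.77 on the log2 scale (mean -0.18, SD 0.52, n = 7 pairs) and Emcn by -0.51 to 0.35 (mean 0.11, SD 0.31). Tie1 kept closest to the others, with a change of -0.05 to 0.16 (mean 0.04, SD 0.08).

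**Figure D2:**
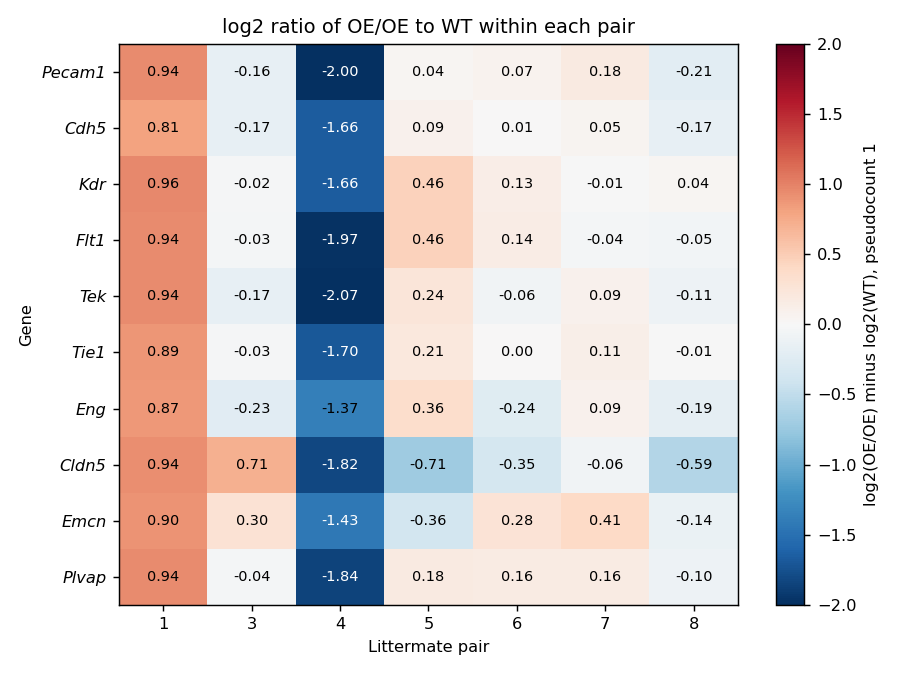
Log2 ratio of the OE/OE to the WT normalized count (pseudocount 1) for each of the 10 endothelial genes (rows) in each of the 7 littermate pairs (columns), with red for higher and blue for lower in the OE/OE mouse. All 10 genes are red in pair 1 and blue in pair 4, and the remaining columns are pale apart from Cldn5 in pairs 3, 5 and 8 and a few others.

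With all 7 pairs the OE/OE mice spread more widely than the WT mice for all 10 genes. The highest WT value was 1.38 (Cdh5) to 2.07 (Flt1) times the lowest, and the highest OE/OE value was 3.86 (Eng) to 7.20 (Tek) times the lowest. With pair 4 left out the OE/OE range shrank to 1.52-fold (Kdr) to 4.12-fold (Cldn5), and was narrower than the WT range for Kdr (1.52 against 2.01), Flt1 (1.59 against 2.07) and Tek (1.76 against 1.96), so that the wider spread of these 3 genes rested on that mouse. This difference in spread was not tested. Of the sum of squares over the 14 log2 values, 40.9% (Plvap) to 68.0% (Kdr) lay between littermate pairs and 0.0055% (Emcn) to 4.9% (Cldn5) between genotypes. With 7 pairs and only WT and OE/OE as genotypes, a larger share falls between pairs even where litter has no effect. These shares were not tested. Among WT mice the lowest value came from the mouse of pair 5 for 7 of the 10 genes and the highest from that of pair 6 for 7, so high and low mice were largely shared by the genes.

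Per kilobase of exon, the 10 genes ordered as follows over the 14 libraries. Plvap stood first at 5678 ± 1769 normalized counts per kb (SD, n = 14), above Cdh5 in 14 of 14 libraries, and only 1.55% of all genes had a higher mean. Cdh5 (2450 ± 672), Pecam1 (2271 ± 725), Eng (2133 ± 554) and Cldn5 (1659 ± 637) came next, and neighbours in this group did not differ beyond their spread. Tie1 (973 ± 283) was below Cldn5 in 13 of 14 libraries and above Tek in all 14, both by more than the SD. Tek (575 ± 186), Flt1 (526 ± 169), Emcn (441 ± 162) and Kdr (401 ± 129) formed the lowest group, whose neighbours again did not differ beyond their spread, and Kdr, the last, had 24.9% of all genes above it. Exon length summed over all transcripts sets these values, so a gene with long exons that are seldom used is understated.

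The 10 genes varied together across mice. Pearson's r of log2(normalized count + 1) over the 14 libraries was 0.42 (Flt1 with Emcn) to 0.99 (Pecam1 with Tie1) among the 45 pairs of genes, with a median of 0.87. Without the OE/OE mouse of pair 4 the median was 0.71, and the lowest r, again Flt1 with Emcn, was -0.16. Over the 7 WT mice alone the median was 0.60 and the range -0.47 to 0.94, with the same lowest and highest gene pairs. The ratios between littermates were closer still, with a median r of 0.97 over 7 pairs and 0.92 over the 6 pairs other than pair 4. Those 6 still include pair 1, where the log2 ratios were 0.81 (Cdh5) to 0.96 (Kdr). That single pair can carry the r of 0.92, and r without pairs 1 and 4 was not computed. All these points share their libraries and size factors, so r is a description only.

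**Figure D3:**
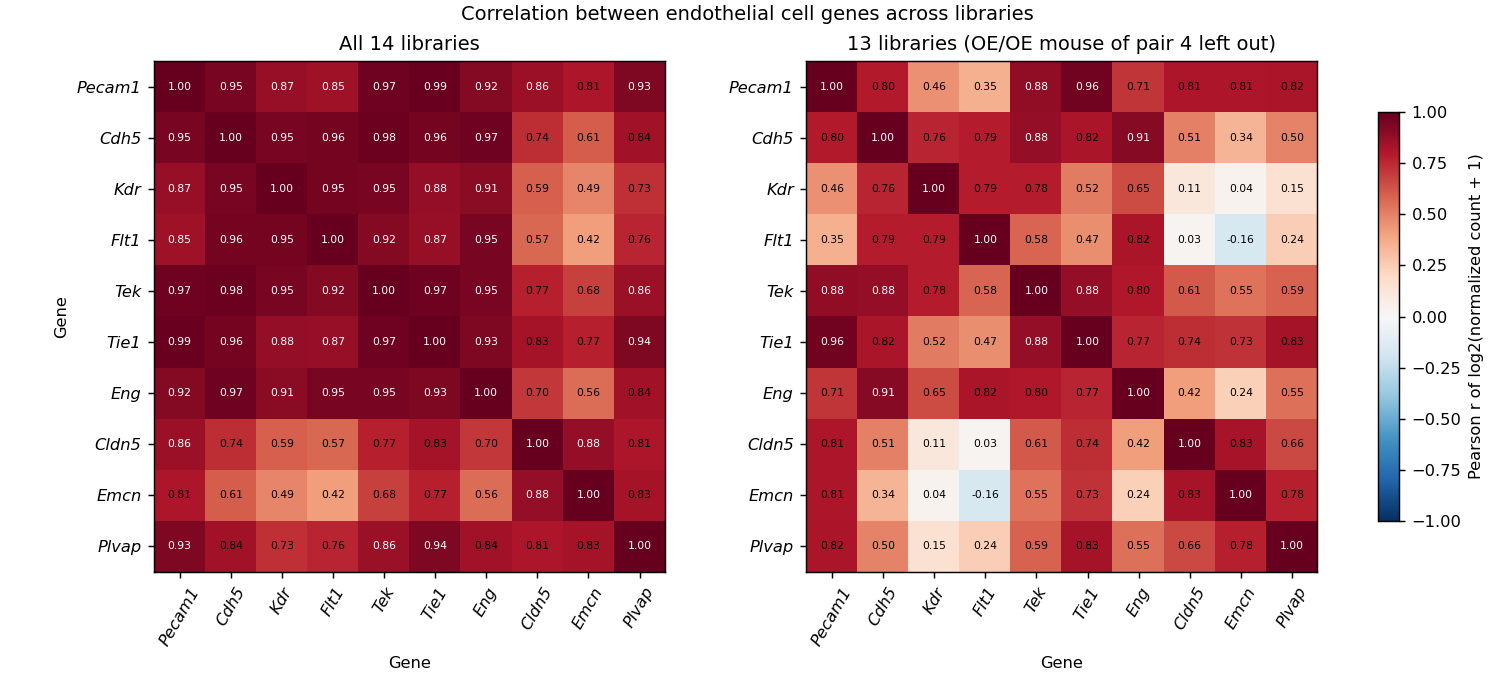
Pearson's r between the log2 normalized counts of the 10 endothelial genes over all 14 libraries (left) and over 13 libraries without the OE/OE mouse of pair 4 (right), coloured from -1 (blue) to 1 (red). Without that mouse Cldn5, Emcn and Plvap keep r of 0.66 to 0.83 with each other and fall to -0.16 to 0.24 with Kdr and Flt1.

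Genes outside the 10 followed the same pattern. The 10 genes with the highest r with the mean log2 of the endothelial genes over the 14 libraries were Rgs16 (0.982), Erg (0.982), Mmrn2 (0.976), Jam2 (0.974), Cdh13 (0.973), Acvrl1 (0.973), Ldb2 (0.973), Aqp1 (0.969), Tfpi (0.968) and Adgrl4 (0.967). Erg encodes an ETS factor of endothelium, Mmrn2 an endothelial matrix protein, Jam2 a junctional adhesion molecule, Acvrl1 the kinase partner of endoglin, Aqp1 a water channel and Tfpi an inhibitor of coagulation. Without the OE/OE mouse of pair 4 their r was 0.852 (Adgrl4) to 0.936 (Tfpi). Of 16114 other genes 205 had an r above 0.9, and the median r was -0.03.

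A list of 20 further endothelial genes behaved as the 10 did. None of the 20 passed the threshold (0 higher, 0 lower), and their median log2 fold change was -0.14. Their mean log2 level followed that of the 10 genes with r = 0.995 over 14 libraries, with 11 of the 20 above 0.9 singly. Without the OE/OE mouse of pair 4 the r of the mean was 0.983. Their difference between littermates was 0.88 in pair 1 and -1.74 in pair 4 on the log2 scale, beside 0.91 and -1.75 for the 10 genes. Without pair 4 the median of the 20 was 0.16, and 2 of the 20 passed the threshold, as 8.47% of all genes did, so the count lies near that background. They were Cd93 (0.26), a C-type lectin of endothelium, and Sox18 (0.40), a transcription factor of vessels, both named after their values were seen.

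The ligands and partners of the receptors did not pass the threshold either (0 of 13, median log2 fold change -0.10), nor without pair 4 (0 of 13, median 0.11). Vegfa, the main ligand of KDR, had means of 8015 ± 1900 in WT and 8405 ± 2832 in OE/OE mice (SD, n = 7), with a log2 fold change of 0.04 (SE 0.15, limma p = 0.796, exact sign-flip p = 0.859), and unlike the receptors it was not low in the OE/OE mouse of pair 4 (8080 against 10407 in the WT littermate; WT range 5652 to 10407). Its r with the endothelial genes was -0.29 over 14 libraries. Vegfb (0.05), Vegfc (-0.01) and Pgf (-0.15) had log2 fold changes near 0, and Vegfd had the largest of the list at -0.49 (SE 0.39, limma p = 0.247, exact sign-flip p = 0.422). That value rested on pair 4, where Vegfd was at 23.0 in the OE/OE mouse against 159 in its littermate, and became -0.11 without it. Angpt1, the activating ligand of TEK, had 382 ± 66.5 in WT and 419.6 ± 160.3 in OE/OE mice, and Angpt2, its context-dependent antagonist, 638 ± 77.6 and 618 ± 186 (SD, n = 7). Angpt4 was near the limit of detection, at 1.92 to 50.9 normalized counts, and its log2 fold change moved from -0.16 to 0.36 without pair 4. The co-receptors Nrp1 (-0.10) and Nrp2 (-0.04), the endoglin partner Acvrl1 (-0.14) and Ptprb (-0.17), the phosphatase that silences TEK, all fell short of the threshold, and Tgfb1 had a log2 fold change of -0.01 (SE 0.07). Ptprb showed the same low value in the OE/OE mouse of pair 4, 1675 against 7509 in the WT littermate.

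Vessel subtypes and mural cells gave few calls, and the direction of some of these lists depended on pair 4. Over the 8 vessel lists, 74 genes that include the 20 and the 13 above, 2 passed the threshold (2.70%), both lower in OE/OE mice, beside 3.81% of all genes called and 1.85% called lower, so the share did not exceed that background. None of the 7 arterial, 6 venous, 5 capillary or 10 pericyte genes did. Without pair 4 there were 6 calls among the 74, beside 8.47% of all genes, of which 5 were higher and Kcne3 alone was lower. Apart from Cd93 and Sox18 the higher ones were Efnb2 (0.27), the arterial ephrin ligand, Nr2f2 (0.33), a venous transcription factor, and Prox1, all named after their values were seen. The list medians moved from -0.21 to 0.18 (arterial), -0.26 to -0.03 (venous), -0.23 to 0.03 (capillary) and -0.14 to 0.15 (pericyte). Those of the tip cell (0.05 to 0.03) and lymphatic (-0.09 to -0.08) lists hardly moved. The sign thus turned for the arterial, capillary and pericyte lists and stayed for the venous, tip cell and lymphatic lists. Kcne3, a potassium channel subunit on the tip cell list, the genes of sprouting endothelium, had 54.3 to 211 normalized counts in WT and 14.4 to 71.8 in OE/OE mice. It was lower in 6 of 7 pairs, with a log2 fold change of -1.58 (SE 0.35, limma p = 0.00121, adjusted p = 0.9997, exact sign-flip p = 0.0312) and -1.47 without pair 4, and its r with the 10 endothelial genes was 0.36. Epithelia can express Kcne3 too, and these data do not place it in endothelium. Lyve1, the hyaluronan receptor of lymphatic endothelium, had 81.6 to 277 in WT and 16.3 to 373 in OE/OE mice, with a log2 fold change of -0.86 (SE 0.36, limma p = 0.0372, exact sign-flip p = 0.0781) and -0.52 without pair 4, where it was no longer called. The highest Lyve1 value and the lowest both came from OE/OE mice, so the groups overlapped. Of the remaining lymphatic genes Prox1, their defining transcription factor, had a log2 fold change of 0.28 (exact sign-flip p = 0.5) and of 0.58 without pair 4, where it was called. Flt4, the receptor of VEGF-C, had -0.09 (limma p = 0.721, exact sign-flip p = 0.859) and 0.18 without pair 4. The mean log2 of the 7 lymphatic genes differed by -0.90 in the OE/OE mouse of pair 1, where the blood vessel genes were higher. Such a mean can rest on 1 gene: Ccl21a ran from 16.3 to 659 normalized counts in WT mice. The list was also mixed, with r to the 10 endothelial genes from -0.54 (Pdpn) to 0.92 (Mmrn1). Which lymphatic genes made the difference in pair 1 was not tested. Pericyte genes followed the 10 endothelial genes, with r = 0.94 over 14 libraries and 0.83 without the OE/OE mouse of pair 4. The log2 difference of pericyte genes between littermates was 0.79 in pair 1 and -1.53 in pair 4.

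The lists of other cell types followed the endothelial genes to unlike degrees. The adipocyte and fibroblast lists had r of 0.74 and 0.65 with the 10 genes over 14 libraries. Without the OE/OE mouse of pair 4 these were 0.58 and 0.34. The remaining lists had r of -0.41 (proliferation) to 0.38 (macrophage) over 14 libraries. Epithelial genes differed by -0.13 to 0.25 between littermates in mean log2, with 1 of 12 called (Cldn7, 0.35, limma p = 0.00267, exact sign-flip p = 0.0156, higher in 7 of 7 pairs). Of 10 fibroblast genes 3 were lower (Lum, Pdgfra and Fbn1), and of 10 adipocyte genes 6 were lower (Plin1, Adipoq, Cfd and Cidec with log2 fold changes of -1.30 to -1.33, and Car3 and Retn), where 1.85% of all genes were lower. Without pair 4 Fbn1 lost its call, the 6 adipocyte genes kept theirs, and Lipe, the hormone-sensitive lipase, was called higher (0.33). None of 10 macrophage, 8 lymphocyte, 5 erythroid, 10 proliferation or 3 milk protein genes passed the threshold. Without pair 4 the proliferation list turned, from a median log2 fold change of 0.12 to -0.85, and 4 of the 10 were called lower (Top2a, Cdk1, Cenpf and Birc5), where 8.47% of all genes were called in either direction. The milk protein median moved from 0.11 to -0.12, with none called. Of 2 platelet genes, which matter here since platelets also carry PECAM1, Pf4 was lower, with a log2 fold change of -0.86 (limma p = 0.0305, exact sign-flip p = 0.0938), and it lost its call without pair 4. Summed normalized counts ran from 6827 to 10263 in WT and 5122 to 14611 in OE/OE mice for the macrophage list, from 209 to 1774 and 214 to 658 for the lymphocyte list, and from 247 to 775 and 230.2 to 516 for the platelet list. Those of the 2 lists that stood out in pair 4 were 8709.5 to 12826 and 8303 to 14262 for adipocyte genes and 287 to 7536 and 559 to 14261 for proliferation genes. Most of the adipocyte sum came from Lipe and Pnpla2 (WT means 4164 and 4794), with log2 fold changes of 0.20 and 0.08. Adipoq, Plin1 and Cidec had WT means of 49.6, 55.9 and 67.5, but each gene weighs the same in the adipocyte score. The sum was higher in the OE/OE mouse of pairs 1, 3, 5 and 7, the score only in that of pair 1. Pericyte genes summed to 17184 to 36229 and 9587 to 37496. No gene of any list was at 0 in any library. Beyond the fits with the adipocyte, fibroblast and proliferation scores as covariates, the part of these cells in the endothelial values was not tested.

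**Figure D4:**
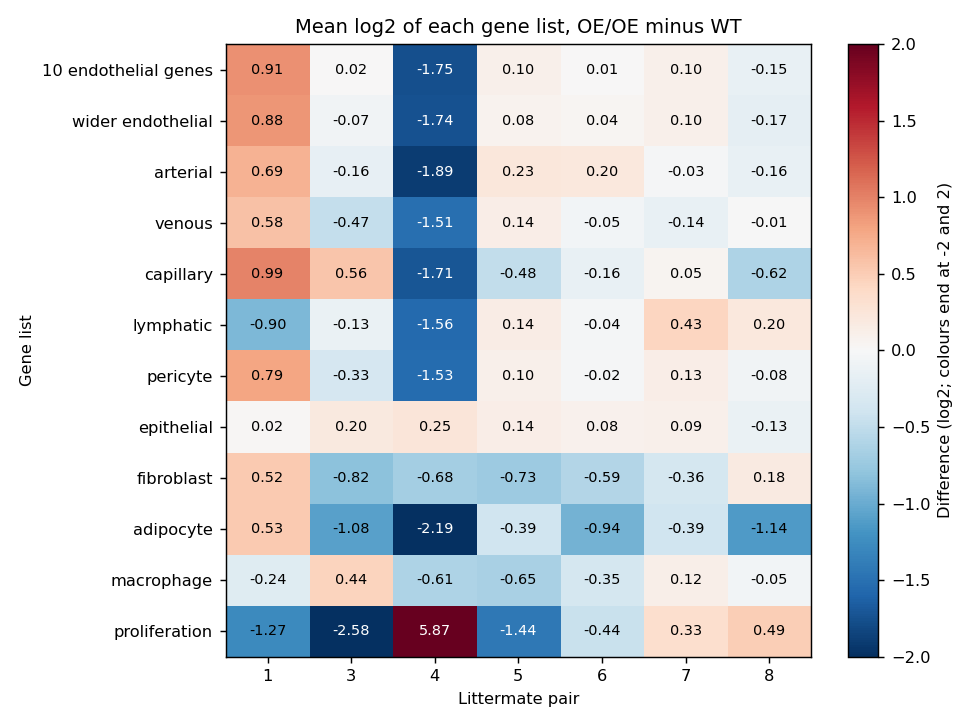
Mean log2 normalized count of 12 gene lists (rows) in the OE/OE minus the WT mouse of each littermate pair (columns), with colours ending at -2 and 2. The 10 endothelial genes, the wider endothelial, arterial, venous, capillary and pericyte lists are red in pair 1 and blue in pair 4, where the difference is 5.87 for the proliferation list and 0.25 for the epithelial list.

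One covariate changed the call. The adipocyte score was lower in OE/OE mice in 6 of 7 pairs, with a mean difference of -0.80 ± 0.84 (SD) on the log2 scale. It gives genes with few counts, such as Adipoq and Plin1, the same weight as the others. The score followed the endothelial genes with r = 0.74 over 14 libraries and 0.58 without the OE/OE mouse of pair 4. With this score in the limma fit beside the pair, 9 of the 10 endothelial genes were higher in OE/OE mice at an unadjusted p of 0.05 or less, by 0.52 (Cdh5) to 0.71 (Flt1) on the log2 scale, and Cldn5 was not called at 0.39 (limma adjusted p = 0.470). The lowest adjusted p was 0.10, and 10.2% of all genes were called higher in the same fit. With pair 4 also left out, a setting chosen after the data were seen, the same number were called, by 0.41 (Cdh5) to 0.57 (Kdr), where 8.65% of all genes were called higher. Of the 20 further endothelial genes 19 were called higher with the score for all pairs. The score itself differed between the genotypes, so that its part and that of the genotype cannot be told apart with 7 pairs. With the score of the wider endothelial list as a covariate the 10 log2 fold changes ran from -0.14 (Cldn5) to 0.11 (Kdr), with none called. That score followed the mean of the 10 genes with r = 0.995 over 14 libraries. This fit therefore takes out any change that the endothelial genes share and could not show one. With the fibroblast and proliferation scores also none of the 10 was called.

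**Figure D5:**
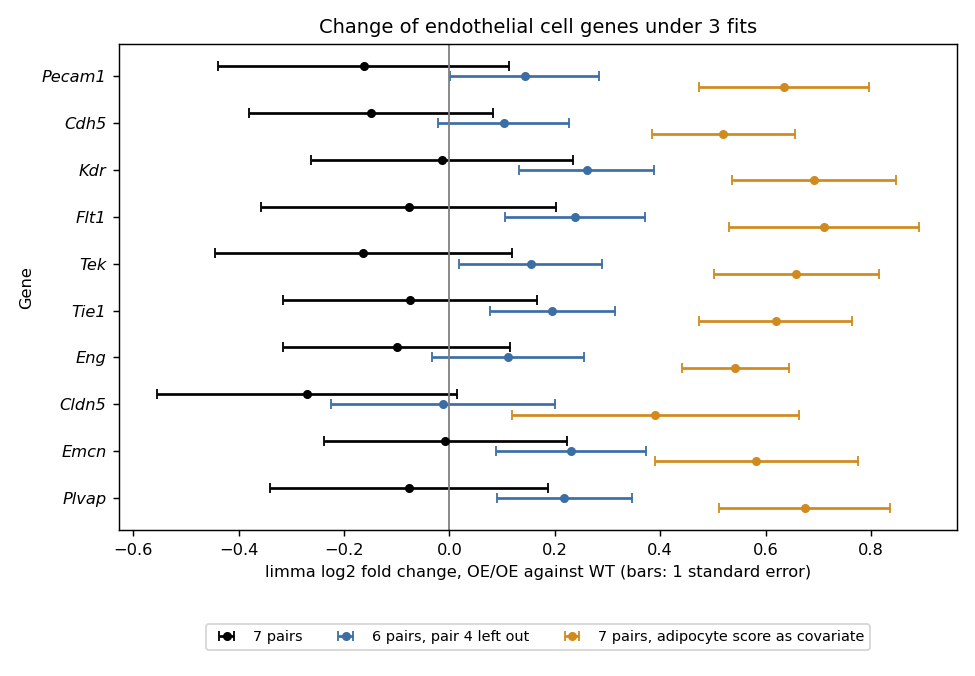
Limma log2 fold change of OE/OE against WT (horizontal axis) for each of the 10 endothelial genes, with bars of 1 standard error, over 7 pairs (black), over 6 pairs without pair 4 (blue) and over 7 pairs with the adipocyte score as a covariate (orange). The black points lie from -0.27 to -0.01, the blue from -0.01 to 0.26 and the orange from 0.39 to 0.71.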

How the data were processed

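RNA-seq libraries of MECs (poly(A) RNA, Illumina TruSeq mRNA kit) came from 7 WT and 7 OE/OE littermate females. The authors aligned read pairs with TopHat2 2.0.10 (mm10), counted fragments per GENCODE gene (HTSeq 0.6.0), required 10 or more fragments in 7 or more libraries and divided counts by DESeq 1.18.0 size factors. The deposited values are thus a signal on a linear scale. Every value was a whole multiple of the library's smallest step (100% within 0.01), which gave the fragments and depth. All 16124 genes matched GENCODE M21 (GRCm38), the source of positions and exon lengths; promoters came from RefSeq.

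The main test was limma 3.58.1 (R 4.3.3, trend) on log2(normalized count + 1), which understates changes of low genes, over all genes, with littermates blocked, a call threshold of 0.05 before adjustment and Benjamini-Hochberg adjustment given too. Pairs come from the methods and shared numbers, and deviations of littermates from their group means correlated in 7 of 7 pairs (0.171 to 0.748; median of the 42 other combinations -0.151). Exact sign flips used 128 patterns. edgeR 4.0.16 and DESeq2 1.42.0 on the recovered fragments called 597 and 626 genes, none of the 10 among them. On simulated data with 200 of 16124 genes changed by a log2 of 1, the OE/OE against WT fit recovered 96.5% at the unadjusted threshold and called 4.81% of unchanged genes. Other settings were the pseudocount, a minimum mean of 50, centring, quantile normalization, no trend, no block, list scores as covariates and the omission of single pairs.

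The 10 genes and all lists were chosen with earlier results of these data known. Named genes were the 10, Usp22, the ligands and partners, up to 4 genes with the smallest p at 0.05 or less from each other list, and the 10 genes most correlated with the mean of the 10. Genes named beyond this (Cd93, Sox18, Efnb2, Nr2f2, Prox1, Flt4, Car3, Retn, Lipe, Pnpla2, Top2a, Cdk1, Cenpf, Birc5) were picked after their values were seen.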

Additional observations from a re-analysis of the deposited data

Results flagged for a closer look

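Of 20 groups tested on linear normalized counts (10 endothelial genes in 2 genotypes), 1 held a mouse far from the others, and chance alone gives about 1. It was Kdr in the OE/OE mice, where the mouse of pair 4 was lowest at 788 normalized counts and its gap to the next mouse, at 3517, was 0.60 of the range of the 7. The same mouse was the lowest OE/OE mouse for the other 9 genes too, with smaller gaps in proportion to their ranges. Log2 values, on which the fits were made, were not tested this way, and the 20 groups share the same libraries. The count of 1 therefore does not weigh how far this mouse lay from the others over the 10 genes together.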

How the results depend on the processing

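Of 22 alternatives, 20 left 0 of the 10 endothelial genes called. Among these 20, the fit with the wider endothelial score takes out any change those genes share, so it could not show one. The adipocyte score raised the count to 9. With that score the log2 fold changes of these 9, negative before, were 0.63 (Pecam1), 0.52 (Cdh5), 0.69 (Kdr), 0.71 (Flt1), 0.66 (Tek), 0.62 (Tie1), 0.54 (Eng), 0.58 (Emcn) and 0.67 (Plvap). With pair 4 also left out, a setting chosen after seeing the data, the count was 9 and the values were 0.50 (Pecam1), 0.41 (Cdh5), 0.57 (Kdr), 0.55 (Flt1), 0.52 (Tek), 0.49 (Tie1), 0.50 (Eng), 0.46 (Emcn) and 0.53 (Plvap). The score itself differs between the genotypes, and the cause was not tested. Calls over the 8 vessel lists (2, Kcne3 and Lyve1) became 1 without the replicate block, 1 with the paired test on untransformed counts, 1 with the fibroblast score, 6 with the wider endothelial score, 49 with the adipocyte score and 45 with that score without pair 4. Leaving out each pair in turn gave 1 (pair 6) to 6 (pair 4; 5 higher, 1 lower), with 5 without pair 1; the cause was not tested. Lyve1 lost its call under 10 of 22 alternatives, and Usp22 and Kcne3 kept theirs under all 22.

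Without the replicate block the log2 fold changes of the 10 genes were the same, -0.27 (Cldn5) to -0.01 (Emcn), with limma p from 0.397 to 0.978, so the pairing changed no call among them. Genes called over the whole table numbered 614 with the block and 182 without it, 1205 with the wider endothelial, 2923 with the adipocyte, 347 with the fibroblast and 974 with the proliferation score, and 2645 with the adipocyte score without pair 4; leaving out pairs gave 381 (pair 6) to 1366 (pair 4), with 1196 without pair 1. Median centring, edgeR and DESeq2 each put 2 of the 10 fold changes just above 0, the largest 0.01; the paired test on untransformed counts put 5 above 0 (up to 0.13), the proliferation score 2 (up to 0.02), the wider endothelial score 6 (up to 0.11) and the fibroblast score 9 (up to 0.25), none of them called. Depth was no limit for the 10 genes, but Angpt4 and most adipocyte genes had few fragments in some libraries.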
